A study of Mus musculus with 2 samples.

Results

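Genes encoding the subunits, assembly factors and regulators of the proteasome were examined in mouse embryonic stem (ES) cells depleted of the histone variant H2A.B, a short form of histone H2A. Members were all genes whose platform symbol begins with Psm, a letter from a to g and a digit. They numbered 47 of 16563 genes with a usable value. Of these 47, 45 have a proteasome role and are described by role below. The other 2 matched by name alone: Psmc3ip, a meiotic recombination factor, and Psme3ip1, a partner of the activator Psme3. The genes Psmc6, Psmd10 and Psme4 were not analysed here.

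The proteasome degrades proteins tagged with ubiquitin. Its core particle is a barrel of stacked alpha and beta rings. The alpha rings form the gate, and some beta subunits carry the proteolytic sites. A regulatory particle caps the barrel, with a base whose ATPases unfold the substrate and a lid that removes the ubiquitin chain. Interferon induces alternative catalytic beta subunits, which form the immunoproteasome and alter the peptides made for antigen presentation. ES cells depend on proteasome activity for cell-cycle control and for keeping their proteins in order.

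The knockdown cells were mouse ES cells infected with a retrovirus expressing a short-hairpin RNA against H2A.B (H2A.B KD), and their controls carried a retrovirus with a control sequence (Control KD). In both, a U6 promoter drove the hairpin from a vector with a neomycin resistance gene, and G418 selection lasted 2 to 4 weeks, in feeder-free culture with serum and leukaemia inhibitory factor. Total RNA (2 µg per sample) was labelled with biotin and hybridised to Affymetrix arrays, 1 array per group. No difference below therefore has a replicate error or a test, and each one describes these 2 arrays. The title of the knockdown sample carries the number 1, and that of the control sample carries no number. The knockdown title does not say whether its number stands for a hairpin, a clone or a culture. All of these cannot be told apart from the depletion.

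Levels are log2 intensities, and differences are knockdown minus control on the log2 scale, so that -1 is a 2-fold lower value. Each gene was read from its brightest usable probe set. Genes whose mean over both arrays reached 6.73, the median over all genes, passed the expression filter. Intensities of different probe sets are not comparable as amounts of RNA. In RNA from whole cultures, fewer cells of one kind and less RNA per cell cannot be told apart.

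For H2A.B itself, 0 probe sets name H2ab1, H2ab2 or H2ab3, so the depletion was not checked on these arrays. ES cell markers were present, with Pou5f1 at 12.64 on the knockdown array and 12.65 on the control array, and 7 of 7 measured markers past the filter (-0.09 to 0.33). Of 8 fibroblast or feeder markers 3 passed the filter (0.07 to 0.25), of 5 measured immune cell markers 0 did, of 4 trophectoderm markers 1 (-0.11) and of 4 endoderm markers 0. Their part in the results was not tested.

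The 45 proteasome genes were represented by 72 probe sets, of which 71 were usable, and 40 genes passed the filter. On the knockdown array 1 of these 40 was at least 2-fold lower, against a background of 1.28% of the 8282 genes past the filter. None was at least 2-fold higher, where the background was 0.676%. The single gene was Psma6. Among the 40 genes, 28 (70.0%) differed by less than 0.1, as did 58.5% of all genes past the filter. The median difference was -0.03 (range -1.74 to 0.21), against -0.0016 for all genes. Differences below 0 were found for 27 of 40 proteasome genes (67.5%) and for 50.6% of all genes.

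**Figure D1:**
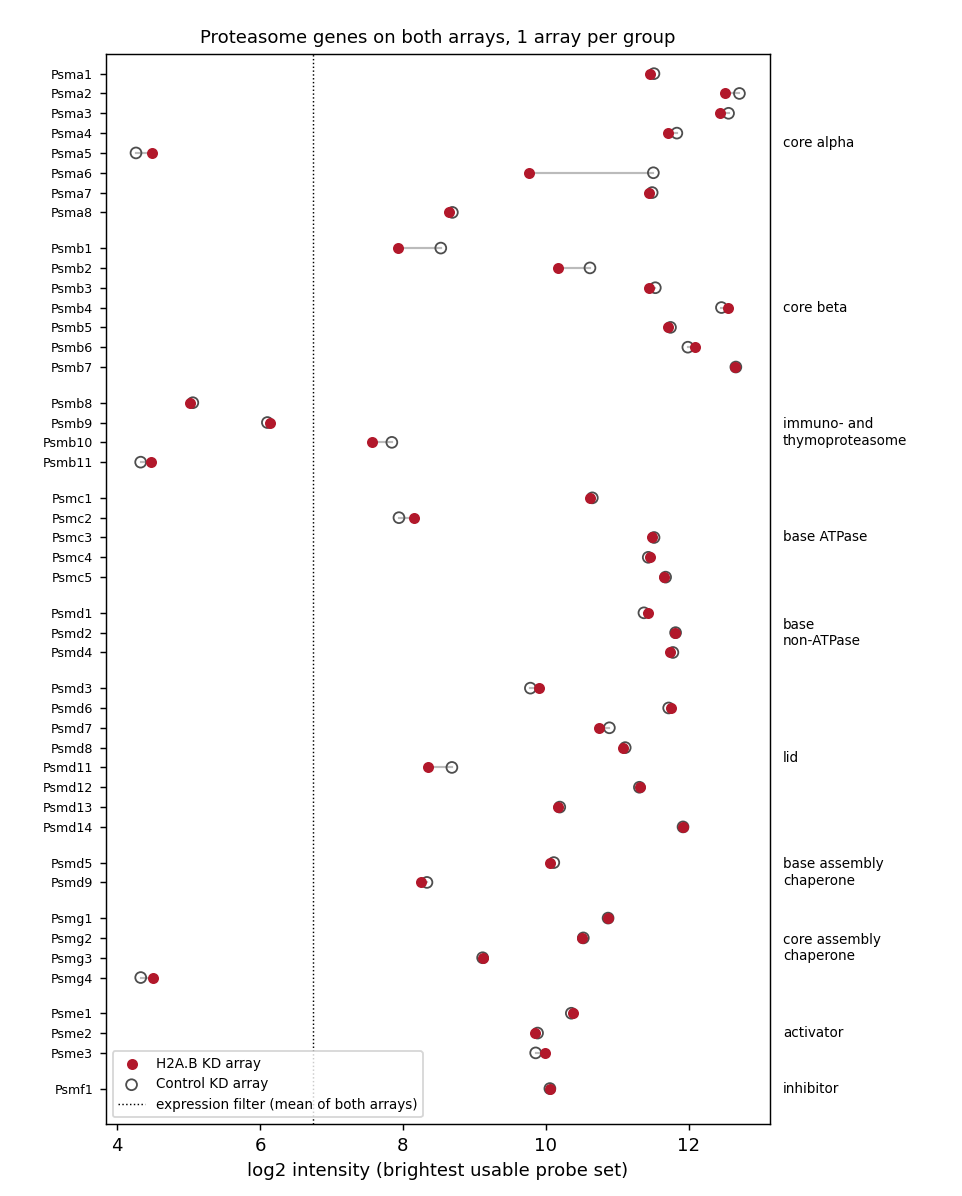
Log2 intensity of the brightest usable probe set of each of the 45 proteasome genes on the H2A.B KD array (filled red) and the Control KD array (open grey), ordered by role, with the expression filter as a dotted line. Most pairs of points touch, Psma6 is drawn apart (9.77 and 11.51), and 5 genes lie left of the filter.

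Psma6, the alpha subunit also called iota or α1, had a log2 intensity of 9.77 on the knockdown array and 11.51 on the control array. The difference of -1.74 is 3.34-fold, beside a median absolute difference of 0.04 over all genes read from the same section of the table (the rows before 18185, as described further below). It rested on a single probe set, and with 1 array per group it cannot be set against a spread between cultures. A mean intensity of at least 10 was reached by 1281 genes read from the same part of the table. On the knockdown array 4 of them were 2-fold lower (Adam23, Fam135a, Psma6 and Cbx3) and 2 were 2-fold higher. That cutoff was chosen after the Psma6 value was seen. Of all 4920 genes past the filter in that section, 31 were 2-fold lower and 3 were 2-fold higher.

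RefSeq annotates 2 start sites for Psma6, on the forward strand of chromosome 12 in GRCm38.p6. Both windows, from 250 bases before to 50 after the start, are shown because this gene alone passed the 2-fold rule. They lie at chr12:55383972-55384271 (upstream start) and chr12:55398575-55398874 (downstream start). Neither holds the motifs described further below.

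Psma6 upstream start: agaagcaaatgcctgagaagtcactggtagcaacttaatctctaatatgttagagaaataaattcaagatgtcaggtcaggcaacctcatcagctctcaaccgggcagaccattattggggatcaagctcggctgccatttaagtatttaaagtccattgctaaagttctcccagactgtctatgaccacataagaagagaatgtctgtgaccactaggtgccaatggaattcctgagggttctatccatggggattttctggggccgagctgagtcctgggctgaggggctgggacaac
Psma6 downstream start: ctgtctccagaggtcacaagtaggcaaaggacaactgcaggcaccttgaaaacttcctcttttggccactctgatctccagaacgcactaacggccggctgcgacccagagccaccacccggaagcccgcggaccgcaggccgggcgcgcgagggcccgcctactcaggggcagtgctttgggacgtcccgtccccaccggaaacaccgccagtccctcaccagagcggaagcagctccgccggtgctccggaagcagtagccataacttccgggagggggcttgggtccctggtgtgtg

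Neighbours of Psma6 on the chromosome did not share its difference. Within 500 kb on either side 10 other genes were measured, and the 7 of them past the filter lay between -0.05 and 0.04. Prorp, the nearest measured gene on one side, which encodes the catalytic subunit of mitochondrial RNase P, had 9.63 on the knockdown array and 9.67 on the control array (-0.05). Nfkbia, the nearest on the other side, an NF-kappa-B inhibitor gene, had 9.27 on the knockdown array and 9.23 on the control array (0.04). In the deposited table the 20 probe sets listed next to that of Psma6 differed by -0.84 to 0.25 (median 0.03), and 0 of them by 2-fold. These looks at neighbours were chosen after the Psma6 value was seen.

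The other alpha subunits differed far less. Psma1 had 11.46 on the knockdown array and 11.52 on the control array (-0.06, with -0.03 and 0.09 on its dim probe sets). Psma7 had 11.45 on the knockdown array and 11.49 on the control array, and its 2 probe sets differed by -0.04 and -0.11. Psma2 had 12.51 and Psma3 12.44 on the knockdown array, against 12.71 for Psma2 and 12.56 for Psma3 on the control array (-0.20 and -0.12). Psma4 had 11.72 on the knockdown array and 11.84 on the control array (-0.12). Psma8, a testis form that takes the place of Psma7 in germ cells, had 8.64 on the knockdown array and 8.69 on the control array (-0.05). All 7 alpha genes past the filter lay below 0, as did 50.6% of all genes past the filter, and the alpha median was -0.12. Psma2 and Psma3 were read from the middle section of the table and Psma4 from the last, where differences of all genes are wide, as given further below. With the first section alone the alpha median was -0.0561. Psma5 lay below the filter, at 4.48 on the knockdown array and 4.26 on the control array (0.22).

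Beta subunits of the constitutive core had a median of -0.03 over 7 genes, 5 of them below 0. The catalytic ones were nearly level. Psmb5, which carries the chymotrypsin-like site, had 11.72 on the knockdown array and 11.75 on the control array (-0.03). Psmb7, with the trypsin-like site, had 12.64 on the knockdown array and 12.66 on the control array (-0.02). Psmb6, with the caspase-like site, had 12.09 on the knockdown array and 11.99 on the control array (0.10). A pair of noncatalytic subunits were lower by more than any other beta gene. Psmb1 had 7.94 on the knockdown array and 8.53 on the control array (-0.59, 1.51-fold). Psmb2 had 10.18 on the knockdown array and 10.62 on the control array (-0.44, 1.36-fold). Each rests on 1 probe set from the middle of the table, where differences of all genes are wide, as given further below. The noncatalytic Psmb3 had 11.44 on the knockdown array and 11.53 on the control array (-0.09, and -0.05 on its other probe set). Psmb4, also noncatalytic, had 12.56 on the knockdown array and 12.46 on the control array (0.10).

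Of the immunoproteasome subunits Psmb8 and Psmb9 lay below the filter and within 0.1 of 0 on their brightest probe sets, and Psmb10 lay above the filter. Psmb8, the interferon-induced counterpart of Psmb5, had 5.02 on the knockdown array and 5.06 on the control array (-0.04), with 0.04 on its dimmer probe set. Psmb9, the counterpart of Psmb6, had 6.14 on the knockdown array and 6.10 on the control array (0.04). Its dimmer probe sets disagreed, at -0.03 and -0.53. Psmb10, the counterpart of Psmb7, was the only one of them past the filter, with 7.56 on the knockdown array and 7.85 on the control array (-0.28). Psmb11, the subunit used by thymic epithelium, had 4.47 on the knockdown array and 4.33 on the control array (0.14). The deposited values carry no detection call, so the size of a difference at such low levels is uncertain.

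ATPases of the base, which unfold the substrate and feed it into the core, had a median of -0.02 over 5 genes and 4 of the 5 lay within 0.1. Psmc1 had 10.62 on the knockdown array and 10.65 on the control array (-0.03, with -0.13 on a dim probe set). Psmc3 had 11.48 on the knockdown array and 11.52 on the control array (-0.04). Psmc5 had 11.66 on the knockdown array and 11.68 on the control array (-0.02). Psmc4 had 11.46 on the knockdown array and 11.44 on the control array, and its 2 probe sets lay on either side of 0 (0.02 and -0.03). Psmc2 was the exception, with 8.15 on the knockdown array and 7.94 on the control array (0.21). That was the highest difference of any proteasome gene past the filter and rested on 1 probe set.

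The remaining base subunits were close to level. The scaffold subunit Psmd2 had 11.81 on the knockdown array and 11.82 on the control array (-0.01, with 0.0043 on a dim probe set), and Psmd1, the other large scaffold, had 11.43 on the knockdown array and 11.38 on the control array (0.05). Psmd4, a ubiquitin receptor, had 11.74 on the knockdown array and 11.78 on the control array (-0.04), with -0.08 and -0.04 on its other probe sets.

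The lid had 8 measured genes, all past the filter, with 4 above and 4 below 0 and a median of -0.01. Psmd14, the enzyme that cuts the ubiquitin chain off the substrate, had 11.93 on the knockdown array and 11.92 on the control array (0.01). Its binding partner Psmd7 had 10.75 on the knockdown array and 10.89 on the control array (-0.14). The other Psmd7 probe sets, both dim, differed by 0.65 and -0.12. Of the other lid subunits, Psmd11 lay furthest from 0 and is described apart. Psmd3 had 9.91 on the knockdown array and 9.79 on the control array (0.13). Psmd6 had 11.76 on the knockdown array and 11.72 on the control array (0.03, and 0.02 on its other probe set). Psmd8 had 11.09 on the knockdown array and 11.11 on the control array (-0.0250). Psmd12 and Psmd13 lay within 0.03 of 0 as well. Psmd12 had 11.32 on the knockdown array and 11.31 on the control array (0.0039). Psmd13 had 10.17 on the knockdown array and 10.20 on the control array (-0.03).

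Psmd11, a lid subunit known in human ES cells for its high level there, gave unlike values on its probe sets. The brightest had 8.36 on the knockdown array and 8.69 on the control array (-0.33). A further probe set past the filter had 6.92 on the knockdown array and 6.72 on the control array (0.20). The 3 dimmest differed by -0.16, -0.31 and 0.19. The knockdown value of the brightest probe set reappears, digit for digit, as the control value of the next row of the deposited table. With such pairs left out the gene was read at 0.20, so its direction was not settled.

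The 5 assembly chaperones past the filter all lay within 0.1 of 0. Psmd5, which helps to build the base, had 10.06 on the knockdown array and 10.11 on the control array (-0.05). Psmd9, another base chaperone, had 8.26 on the knockdown array and 8.34 on the control array (-0.08, with -0.06 and 0.10 on its dimmer probe sets). Psmg1 and Psmg2 pair to start the alpha ring. Psmg1 had 10.87 on both arrays (-0.0008). Psmg2 had 10.50 on the knockdown array and 10.53 on the control array (-0.02). The dimmer Psmg2 probe set had 10.18 on the knockdown array and 9.90 on the control array (0.28). Psmg3 and Psmg4 act together in the same step. Psmg3 had 9.13 on the knockdown array and 9.12 on the control array (0.01). Psmg4 was read from a dim probe set (4.50 on the knockdown array, 4.33 on the control array, 0.18). Its brighter probe set, with 9.22 on the knockdown array, was left out because its control value of 9.02 repeats that of Rps27l in the table, 2 rows above. The control value of the dim probe set recurs in the row below it.

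Activators open the gate of the core without ATP. Psme1 and Psme2, which interferon induces, together form the PA28 alpha-beta ring. Psme1 had 10.38 on the knockdown array and 10.36 on the control array (0.02). Psme2 had 9.85 on the knockdown array and 9.89 on the control array (-0.03). Psme3, the nuclear activator PA28-gamma, had 9.996 on the knockdown array and 9.86 on the control array (0.14, and 0.05 on its other probe set). The inhibitor Psmf1, known as PI31, had 10.06 on both arrays on its brightest probe set (0.0046), and its other 3 probe sets differed by -0.19, -0.05 and -0.11. Of the genes matched by name alone, Psmc3ip had 8.68 on the knockdown array and 8.73 on the control array (-0.05), and Psme3ip1 had 10.06 on the knockdown array and 10.12 on the control array (-0.07).

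**Figure D2:**
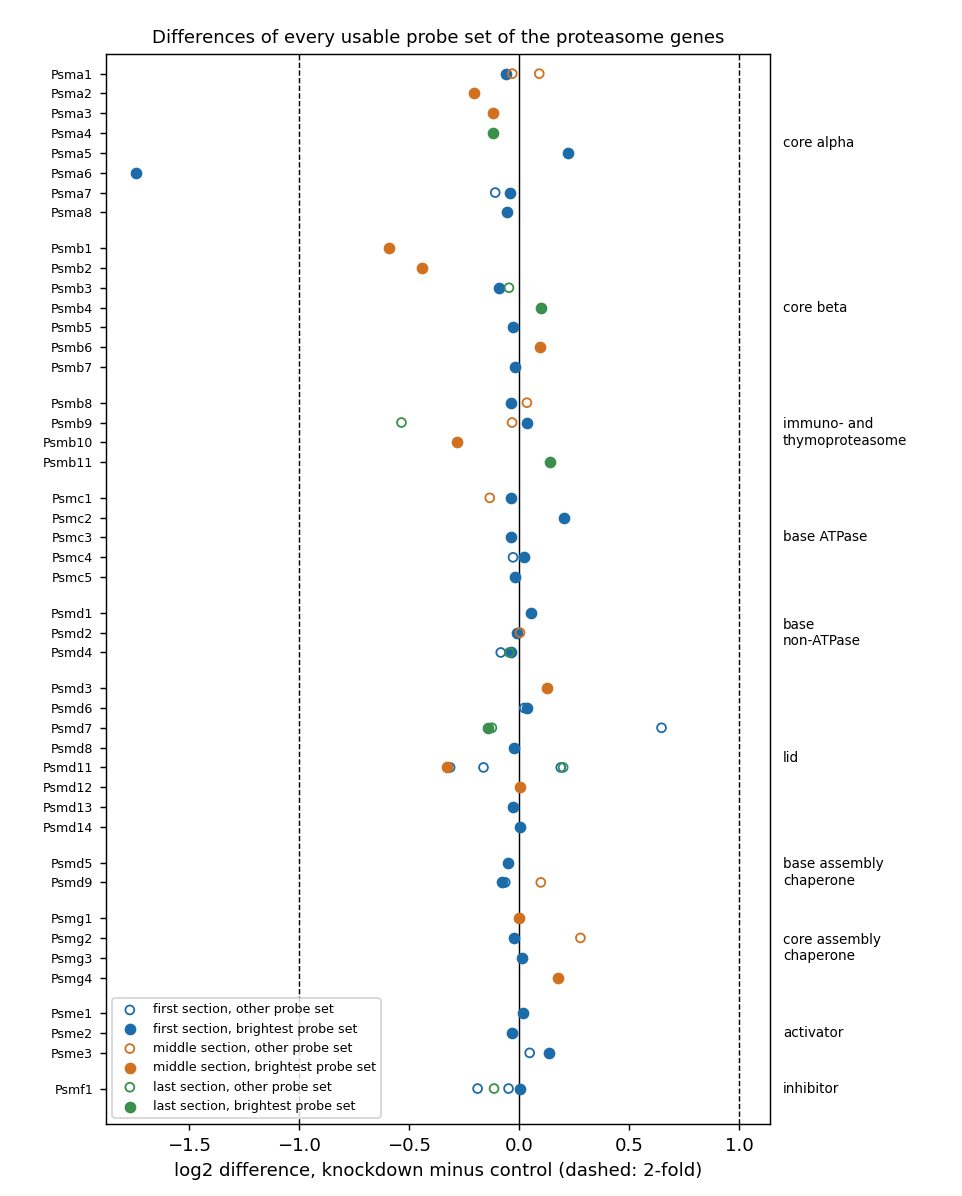
Log2 difference, knockdown minus control, of each of the 71 usable probe sets of the 45 proteasome genes, with the brightest probe set filled and the others open, and colours for the first, middle and last section of the deposited table. Psma6 at -1.74 is the only point beyond the dashed 2-fold lines, and Psmb1 (-0.59), Psmb2 (-0.44) and the dim probe sets of Psmd7 (0.65) and Psmb9 (-0.53) are the next widest.

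Agreement between probe sets could be read for 9 proteasome genes with at least 2 of them past the filter. Their SD had a median of 0.05, the same as the 0.05 over all 2556 such genes. The widest were those of Psmd11 (0.37) and Psmg2 (0.21), whose probe sets lay on both sides of 0. Psmd13 was also covered by 2 probe sets that name Sirt3 as well, which differed by -0.01 and -0.05, against -0.03 on its own.

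Part of the spread among proteasome genes went with their place in the table. Control values that repeat a nearby value occur between rows 18185 and 33642, which divides the table into a first section (the rows before), a middle section (the range itself) and a last section (the rows after). Of the 40 proteasome genes past the filter, 27 were read from the first section, 10 from the middle and 3 from the last. The median absolute difference of the proteasome genes was 0.03 for first-section genes, 0.17 for those of the middle and 0.12 for those of the last. Over all genes it was 0.04 (first), 0.19 (middle) and 0.19 (last). In the first section 24 of 27 proteasome genes lay within 0.1, against 81.2% of all genes there. The exceptions were Psma6, Psmc2 and Psme3.

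Within the first section 18 of 27 proteasome genes lay below 0, against a background of 47.7% of 4920 genes, and their median was -0.0250, against 0.0030 for all genes there. In the middle section 7 of 10 did, with a median of -0.16, against 55.1% and -0.04 for all genes. Psmb1, Psmb2, Psmd11, Psmb10 and Psma2 hold the lowest values in the middle section. Each was read there from 1 probe set, and the part of the section in their differences was not tested. Of all 3 member probe sets that lie among the rows of the knockdown step series (1 of Psmd4, 2 of Psme3), 0 belong to the series.

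**Figure D3:**
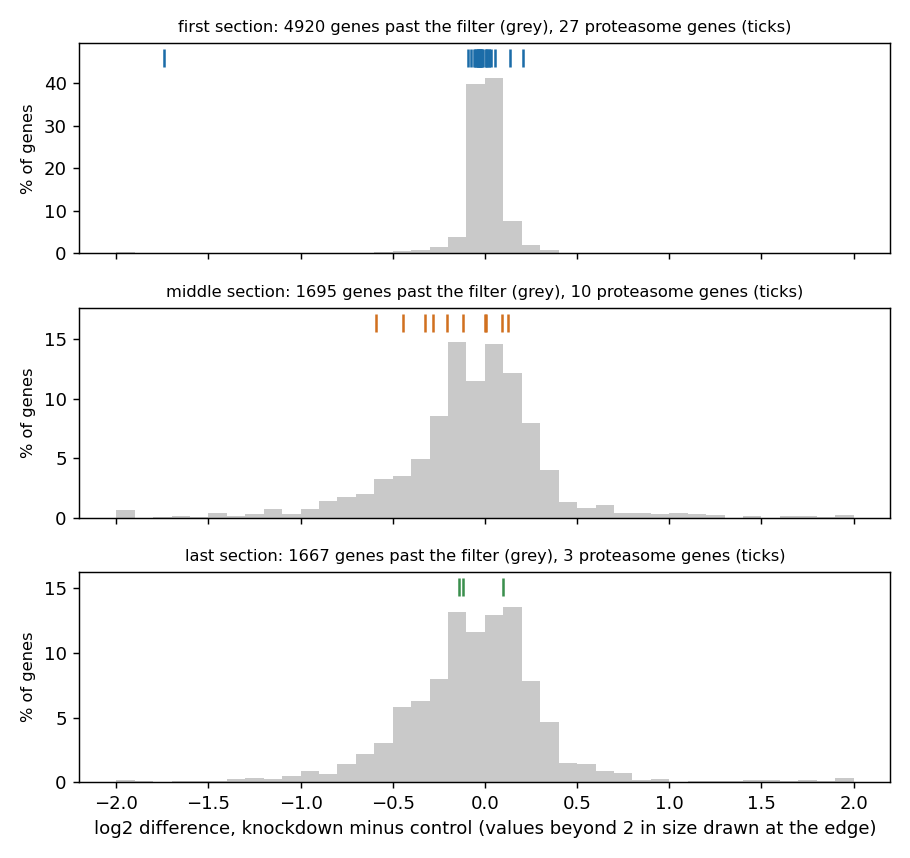
Distribution of the log2 difference, knockdown minus control, of all genes past the filter in each section of the table (grey bars, percent of genes), with the proteasome genes as ticks. The first section holds 27 proteasome genes, narrowly placed apart from Psma6 at -1.74, and the middle section spreads its 10 from -0.59 to 0.13.

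A second probe set can show whether a large difference holds for a gene, and Psma6 has none. Over all genes past the filter that were read from the first section and were 2-fold lower, 31 in number, 10 had a second probe set past the filter. The second probe set could lie in any section. In 0 of these 10 was a second probe set also 2-fold lower, and in 7 all the others lay within 0.5. Of such genes read from the middle section, 5 of 6 were 2-fold lower again on a second probe set, and of those read from the last section 0 of 3. Among genes 2-fold higher with a second probe set, 1 of 1 read from the first section was 2-fold higher again. The same held for 4 of 6 read from the middle section and 3 of 4 read from the last. These counts were made after the Psma6 value was seen and say nothing of Psma6 itself.

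In the 4 lists of genes that work with the proteasome, 0 genes past the filter were at least 2-fold lower or higher. Over all genes these shares were 1.28% lower and 0.676% higher, so lists of this size would hold about as few, and the counts of 0 are no result about the lists. Of the list of associated subunits, ubiquitin receptors and shuttles, 12 of 17 genes were measured and 10 passed the filter, with 0 at least 2-fold higher, 0 lower and a median of 0.02. The members furthest from 0 were Rad23b, a shuttle for ubiquitylated proteins (0.19, from 0.02 to 0.17 on its other probe sets), and Ecpas, a proteasome adaptor below the filter (0.19). They were followed by Txnl1, a thioredoxin-like partner of the regulatory particle (0.13, from -0.84 to 0.15 on its other probe sets), and Ubqln2, another shuttle (0.11, from -0.16 to 0.12 on its other probe sets). Pomp, the maturation factor of the core, is named for its role, after its values were seen. It had 11.61 on the knockdown array and 11.69 on the control array (-0.08).

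Regulators of proteasome genes included Nfe2l1, the factor that raises proteasome gene transcription when activity falls, also named for its role. It had 8.99 on the knockdown array and 8.94 on the control array (0.05). Of 10 listed regulators 9 were measured and 9 passed, with 0 past 2-fold in either direction and a median of 0.04. The widest were Nfya, a subunit of the CCAAT-binding factor (0.37, with -0.19 and -0.13 on its other probe sets), and the small Maf gene Mafg (-0.31). Nfyb (-0.08, with 0.04 on its other probe set) and Nfe2l2, the oxidative stress factor (0.06, with 0.17 on its other probe set), came next.

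Ubiquitin, its activating enzymes and the p97 segregase adaptors gave 5 genes past the filter of 6 measured and 12 listed, with 0 past 2-fold and a median of -0.05. Nploc4 (-0.26), Nsfl1c (-0.06), Ufd1 (-0.05) and Faf1 (0.04), all adaptors of p97, were furthest from 0. Antigen processing genes, which the immunoproteasome serves, gave 3 past the filter of 5 measured and 10 listed, with 0 past 2-fold and a median of 0.03. H2-K1, a class I heavy chain, differed by -0.24 (from -0.08 to 0.38 on its other probe sets), Tapbp, which loads peptides, by 0.09, and the interferon regulatory factor gene Irf1 by 0.03. H2-D1, below the filter, differed by -0.09.

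**Figure D4:**
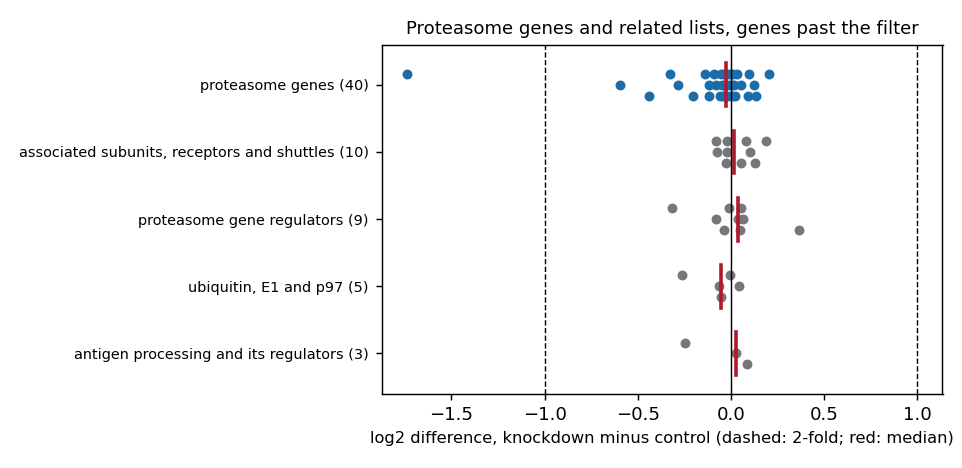
Log2 difference, knockdown minus control, of each gene past the filter in the proteasome set (40 genes, blue) and in the 4 related lists (grey, numbers of genes in parentheses), with medians in red and 2-fold as dashed lines. Psma6 is the only gene beyond a dashed line.

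Promoter windows of 300 bases were available from RefSeq (GRCm38.p6) for 37 of the 45 genes, in 40 windows. The genes Psma8, Psmb1, Psmb2, Psmb7, Psmc3, Psmd3, Psmd7 and Psmg2 had no entry. The core of the antioxidant response element that Nfe2l1 and Nfe2l2 bind, TGACNNNGC on either strand, occurred in 4 of 40 windows in all, those of Psmb5, Psmb6, Psmd9 and Psmd12, and in 12.4% of all 32851 windows. The core of the interferon-stimulated response element, GAAANNGAA on either strand, occurred in 7 of 40 (17.5%), those of Psmb3, Psmb4, Psmc2, Psmd4, Psmd9, Psme1 and Psmg4, and in 8.56% of all windows. The letters of the motifs were searched separately, so a window can count for both, as that of Psmd9 does. The windows of Psmb8, Psmb9, Psmb10 and Psme2, named above as immunoproteasome subunits or as induced by interferon, held no interferon core. A match is a run of letters and not a bound site.

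Of these windows, that of Psmb5 shows the antioxidant core and that of Psme1 the interferon core, each in capitals, in genes that differed by -0.03 (Psmb5) and 0.02 (Psme1). The Psmb5 window lies at chr14:54617946-54618245 on the reverse strand, with the match at bases 204 to 212. The Psme1 window lies at chr14:55578244-55578543 on the forward strand, with the match on the opposite strand at bases 261 to 269.

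Psmb5: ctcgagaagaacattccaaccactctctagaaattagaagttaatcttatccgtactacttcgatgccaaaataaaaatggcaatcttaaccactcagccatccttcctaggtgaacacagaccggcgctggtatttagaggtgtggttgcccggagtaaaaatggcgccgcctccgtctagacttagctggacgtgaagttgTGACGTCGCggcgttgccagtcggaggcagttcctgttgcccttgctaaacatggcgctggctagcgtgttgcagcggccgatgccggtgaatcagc
Psme1: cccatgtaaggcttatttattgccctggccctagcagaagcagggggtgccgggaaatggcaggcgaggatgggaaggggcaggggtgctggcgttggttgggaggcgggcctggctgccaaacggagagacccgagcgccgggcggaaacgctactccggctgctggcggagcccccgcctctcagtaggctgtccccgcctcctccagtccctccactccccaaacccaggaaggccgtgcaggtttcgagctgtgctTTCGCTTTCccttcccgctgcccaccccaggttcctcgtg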

How the data were processed

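Expression was measured on Affymetrix arrays, 1 for H2A.B KD and 1 for Control KD ES cells. The authors made the deposited log2 values with RMA (named without a version in the submitters' processing notes). The table does not state its scale, and the control column (log2, from its range) was used as deposited. The deposited knockdown column was recorded as a score, since not all of it is log2: 616 values form a series rising by 1 (rows 2054 to 4710) and 2 others exceed 20. These were left out, and the remaining values were used as log2 intensities. Control values identical to a value up to 20 rows above (1455) were left out too.

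Of 45118 probe sets, 28898 name 1 gene in the platform annotation; identifiers of 28689 were found in RefSeq (GRCm38.p6) and took its symbols. The brightest usable probe set stood for a gene, and 8282 of 16563 genes passed the filter. No test was possible with 1 array per group; a difference of 2-fold was the rule of size. Every member is named, and of each related list the 4 members furthest from 0. The members and lists were chosen with earlier results of these data known. The looks at the neighbours of Psma6, second probe sets and bright first-section genes were chosen after seeing the data. Python 3.11.15, pandas 2.3.3 and statsmodels 0.14.6 were used. The procedure was tested on simulated data, with even noise over the whole table and repeats taken from the control column only. That test therefore does not cover the wide middle and last sections or copied knockdown values. An array gives no read depth, and having only 2 arrays limits the precision. Alternatives covered the value per gene, probe set type, filter, centring, rule of size, repeats, table section and, chosen after seeing the data, the genes matched by name.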

Additional observations from a re-analysis of the deposited data

How the results depend on the processing

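The count of proteasome genes at least 2-fold higher stayed at 0 under all 12 alternatives tried for it. Over all genes past the filter 0.676% were 2-fold higher, so a set of 40 genes would hold about as few. The count of 0 is therefore no result about the set. The count at least 2-fold lower, 1, was 2 under the 1.5-fold rule (Psma6 and Psmb1). Under that rule 318 of all 8282 genes past the filter were lower and 149 higher, so the second gene is no result about the set. The count lower was 0 with the middle or the last section alone, which do not hold the Psma6 probe set. The median over proteasome genes, -0.03, was -0.12 with the middle section alone and -0.0797 with the last section alone, and moved by less than 0.05 under the others. By role, the core alpha median of -0.12 was -0.0561 with the first section alone. The core beta median of -0.03 was -0.44 with the middle section alone and 0.0261 with the last alone. The immunoproteasome and thymoproteasome value, which rests on Psmb10 (-0.28), became 0.0001 over 4 genes with no expression filter. Core assembly chaperones had 0.14 with the middle section alone, against -0.0008, and the inhibitor Psmf1 had -0.0806 with the median over probe sets and -0.11 with the last section alone, against 0.0046. Section settings hold fewer genes and read each gene from its brightest probe set in that section, which can differ from the one used above. With the middle section alone 11 genes passed the filter, against the 10 read from it above, so the medians differ. The cause of the other changes was not tested. Sign changes to a value at least 0.1 from 0 were these. Psmg2 turned above 0 with the median over probe sets, with suffix-free probe sets and with the middle section alone, and Psmd11 with repeated pairs left out or with the last section alone. Psmd7 turned above 0 with the first section alone, and Psmb9 and Psmf1 below 0 with the last alone. These Psmd7 and Psmb9 values came from dim probe sets below the filter. That of Psmd7 had 4.48 on the knockdown array and 3.84 on the control array, and that of Psmb9 had 5.17 and 5.71. Changes of sign to smaller values befell Psma1, Psmb8, Psmb9, Psmd2 and Psmd9 with the middle section alone, Psmb9, Psmc4 and Psmf1 with the median over probe sets, Psmc4 with suffix-free probe sets, Psmd12, Psmd14 and Psmf1 with lowess centring and Psmg1 with median centring. Centring by median or lowess moved no member by 0.05. No replicate could be left out and no paired analysis was possible because each group has 1 array.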
